A study of Mus musculus with 2 samples.

Results

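The 38 genes described here encode the folding, quality control and import machinery of the endoplasmic reticulum, and were taken by gene symbol through GENCODE release M21. All 38 were among the 20505 genes listed for both libraries, and all 38 were among the 12905 genes that reached at least 1 FPKM in a library. FPKM is a read level scaled by transcript length and library depth, so it can be compared between genes. The 38 genes comprised 5 stress sensors, 14 chaperones and folding enzymes, 10 genes of degradation and 9 genes of the translocon, the channel through which new proteins enter. RNA came from primary hepatocytes of C57BL/6 mice, freed by collagenase perfusion and cultured with serum. Both cultures had been infected overnight with an adenovirus, which carried HuR in one and β-Gal, a bacterial enzyme that served as the control, in the other. An uninfected culture was not analysed here. Each group was 1 library, from 17671387 reads for HuR and 18357016 reads for β-Gal as implied by the steps between FPKM values. The labels do not state the number, sex or age of the mice. With 1 library per group no difference below has a replicate check or a test, and every interval covers counting error only.

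Proteins bound for secretion cross the membrane of the endoplasmic reticulum through the Sec61 channel, fold with the help of BiP, lectin chaperones and disulfide isomerases, and are sent back to the cytosol for destruction when folding fails. Hepatocytes secrete most plasma proteins and depend heavily on this machinery. When unfolded proteins build up, the sensors IRE1, PERK and ATF6 raise transcription of chaperone and degradation genes, a programme called the unfolded protein response. HuR, encoded by Elavl1, binds AU-rich and U-rich stretches, chiefly in the 3′ untranslated regions of mRNAs, and is best known for stabilizing them.

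Elavl1 stood at 4480 FPKM in the HuR library and 9.67 FPKM in the β-Gal library, which matches the labels. Hepatocyte markers summed to 34980 FPKM in the HuR library and 31872 FPKM in the β-Gal library over 8 of 8 genes, among them albumin (Alb) at 27642 and 25353 FPKM. Of these 8 markers, 6 were higher in HuR and 2, Hnf4a and Cps1, were lower. Cps1 was 2.66-fold lower, at 3.17 FPKM in HuR and 8.41 FPKM in β-Gal. The tables listed no gene at 0 FPKM in the β-Gal library, so a 0 could occur only in HuR. Of the markers at 0 in HuR, Agr2 had 3.35 FPKM and Scgb1a1 19.9 FPKM in β-Gal. Clec4g, Lrat, Pou2af1, Ms4a1 and Pnlip were near 0 in β-Gal too, from 0.0102 FPKM (Lrat) to 0.0468 FPKM (Clec4g). Markers of other cells were lower in level but differed between the libraries. Their summed levels, over all markers listed, were 146 FPKM in HuR and 67.2 FPKM in β-Gal for macrophages (10 of 10 genes), and 41.7 and 22.6 FPKM for endothelial cells (8 of 8, Clec4g at 0 in HuR). Goblet cell and enterocyte markers summed to 12.3 FPKM in HuR and 73.3 FPKM in β-Gal (9 of 9, Agr2 at 0 in HuR), stellate cell markers to 1.92 and 13.4 FPKM (8 of 8, Lrat at 0 in HuR) and lung markers to 0.368 and 33.2 FPKM (6 of 6, Scgb1a1 at 0 in HuR). Cholangiocyte markers summed to 84.2 FPKM in HuR and 70.01 FPKM in β-Gal (6 of 6), plasma and B cell markers to 3.05 and 7.997 FPKM (8 of 8, Pou2af1 and Ms4a1 at 0 in HuR), and the 4 of 11 pancreatic acinar markers that were listed to 10.3 and 5.71 FPKM (Pnlip at 0 in HuR). Most of the cholangiocyte sum was Spp1, at 71.9 FPKM in HuR and 50.8 FPKM in β-Gal. Of the 6 cholangiocyte markers, 4 were lower in HuR (Krt19, Epcam, Cldn7 and Sox9) and 2 higher. The source of the goblet cell, enterocyte and lung marker reads was not tested, and a marker RNA alone does not show that its cell was in the culture. The part of other cells in the values of the 38 genes was not tested either. Where such cells were present, fewer cells of a type and less RNA per cell cannot be told apart in bulk RNA.

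The endoplasmic reticulum genes were present at nearly the same total level, with summed FPKM of 3739 in the HuR library and 3738 in the β-Gal library. Within this total, the folding gene Creld2 was higher in the HuR library, and the degradation genes Edem3, Sel1l and Herpud1 were lower. A gene was called at a difference of at least 2-fold in log2((HuR + 1)/(β-Gal + 1)), a scale that understates the change of low genes. By this rule 1 of the 38 genes, Creld2, was higher, against 5.35% of all compared genes, and 3 were lower, Edem3, Sel1l and Herpud1, against 8.31%. Among all compared genes, higher calls made up 39.2% of calls as deposited and 59.3% once the all-gene median was moved to 0. At 1.5-fold, 3 members, Creld2, Sdf2l1 and Manf, were higher (12.0% of all compared genes) and 6 lower (23.4%), namely Pdia4, Sec63, Ssr3 and the 3 degradation genes. These shares, 1 or 3 of 38 at 2-fold and 3 or 6 of 38 at 1.5-fold, are near or below those of all genes. The median log2 fold change was -0.14 over the 38 genes and -0.17 over all compared genes, so -0.17 is the value of a gene in the middle of the difference between the libraries.

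**Figure D1:**
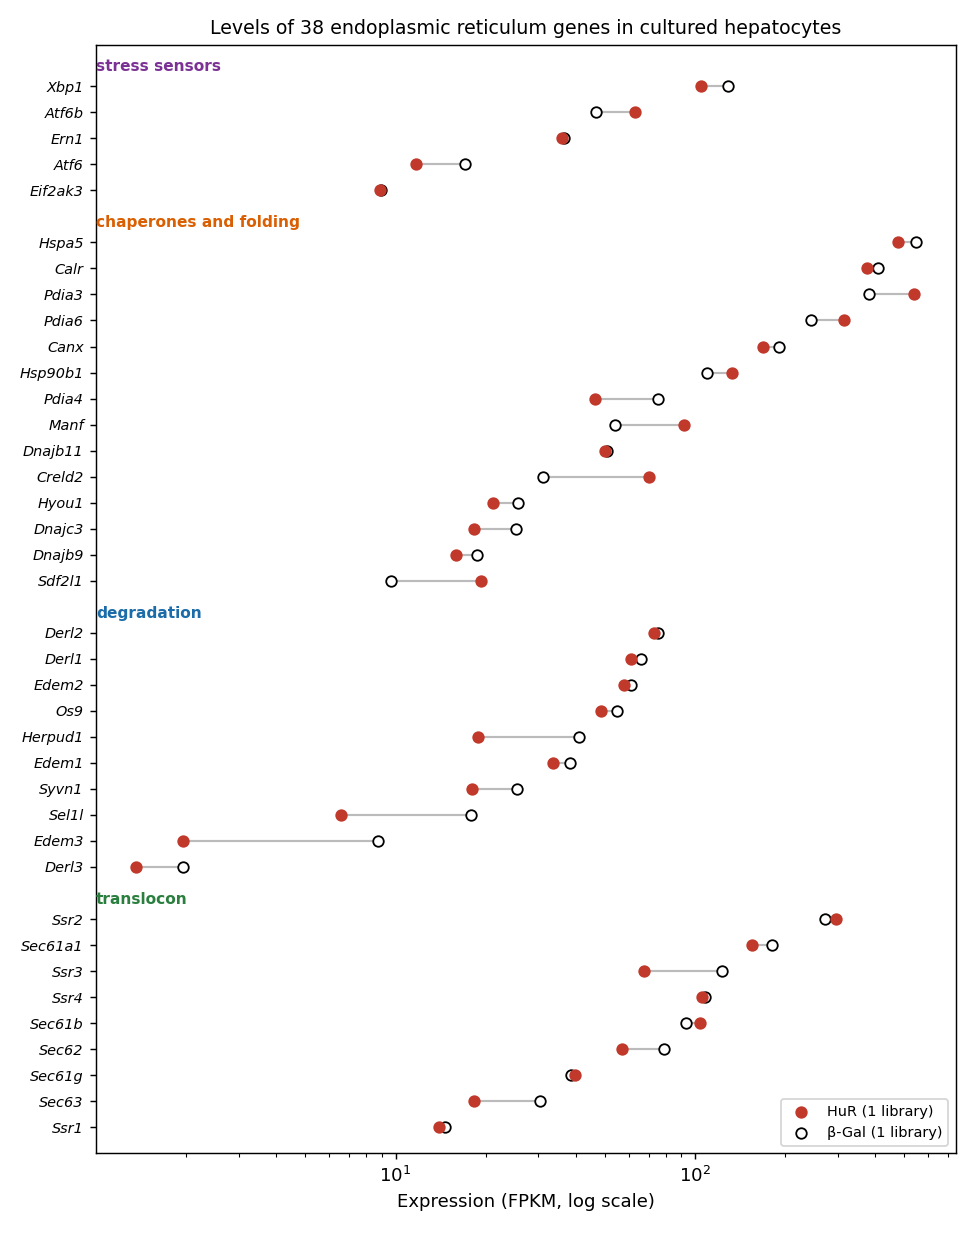
Level of each of the 38 genes in FPKM on a log axis, by role, with the HuR library as filled red points and the β-Gal library as open points (1 library each). The widest gaps are those of Edem3 (1.96 FPKM in HuR, 8.77 FPKM in β-Gal), Sel1l, Creld2 and Herpud1, while Ern1, Eif2ak3 and Dnajb11 nearly coincide.

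Many chaperone genes carry an endoplasmic reticulum stress element (ERSE) in the promoter, made of CCAAT, a spacer of 9 bases and CCACG, where NF-Y binds the CCAAT part and ATF6 or XBP1 the CCACG part. The element was searched on both strands in the 250 bases before the RefSeq start site (build GRCm38.p6), and 32 of the 38 genes had a promoter in that table, all but Manf, Atf6, Hyou1, Derl1, Ssr2 and Sec61a1. The element was present in 9 of these 32 genes (28.1%), against 35 of 27025 genes (0.130%) in the whole table, the 9 included. The shorter condition of CCAAT and CCACG anywhere in the window, which every ERSE meets, held for 19 of the 32 genes (59.4%) and 10.6% of all genes. A variant called ERSE-II, ATTGG, any base, then CCACG, was searched after the first results were seen and occurred in Herpud1 and in 10 genes overall (0.0370%). The element TGACGTGG, bound by XBP1, was found in 0 of the 32 windows and in 163 genes (0.603%). A match describes letters only, and binding was not measured. The element is known from chaperone genes, which are among the members, so its larger share here is a description and not a test. The whole upstream windows of the called genes with an element, Creld2 and Herpud1, are shown first, with the ERSE (on the opposite strand, so read as CGTGG to ATTGG) and the ERSE-II in capitals.
Creld2 (chr15:88819396-88819645, plus strand): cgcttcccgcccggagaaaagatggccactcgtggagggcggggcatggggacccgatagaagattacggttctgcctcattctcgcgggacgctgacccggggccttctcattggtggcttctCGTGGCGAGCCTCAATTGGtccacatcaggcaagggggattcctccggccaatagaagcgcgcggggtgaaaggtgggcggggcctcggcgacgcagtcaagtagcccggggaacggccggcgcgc
Herpud1 (chr8:94386179-94386428, plus strand): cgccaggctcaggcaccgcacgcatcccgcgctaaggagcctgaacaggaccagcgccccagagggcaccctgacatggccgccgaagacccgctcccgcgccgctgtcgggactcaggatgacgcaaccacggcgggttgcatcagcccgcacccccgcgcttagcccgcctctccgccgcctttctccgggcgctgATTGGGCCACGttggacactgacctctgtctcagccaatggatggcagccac

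The other 8 genes with an ERSE are shown with the element in capitals and 5 bases on either side, to let the spacers be compared. In Calr, Derl3 and the site of Hsp90b1 nearer the start the element lies on the opposite strand.
Hspa5 (chr2:34772020-34772048, plus strand): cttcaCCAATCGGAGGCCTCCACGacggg
Hsp90b1 (chr10:86705633-86705661, minus strand): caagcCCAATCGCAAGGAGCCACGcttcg
Hsp90b1 (chr10:86705528-86705556, minus strand): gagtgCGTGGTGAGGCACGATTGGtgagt
Calr (chr8:84847070-84847098, minus strand): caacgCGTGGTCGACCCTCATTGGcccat
Canx (chr11:50325795-50325823, minus strand): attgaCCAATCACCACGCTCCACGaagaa
Pdia6 (chr12:17266486-17266514, plus strand): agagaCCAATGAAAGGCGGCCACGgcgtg
Dnajc3 (chr14:118937822-118937850, plus strand): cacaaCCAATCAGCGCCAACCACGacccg
Syvn1 (chr19:6046527-6046555, plus strand): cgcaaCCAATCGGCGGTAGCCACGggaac
Derl3 (chr10:75893237-75893265, plus strand): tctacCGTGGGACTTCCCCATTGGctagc
In Creld2 the first base of the element lay 126 bases before the start site, in Hspa5 65, in Syvn1 44 and in Hsp90b1 212 and 107 bases before it. These distances hold for the RefSeq start. In GENCODE the Hspa5 gene starts earlier, at 34771970, and the Hspa5 stretch shown overlaps an annotated exon of Hspa5. The other stretches overlapped no annotated exon. Genes with an ERSE did not share a direction. Of the 9, 3 had a log2 fold change above 0 (Creld2, Pdia6 and Hsp90b1) and 6 below it as deposited, while Calr also lay above 0 with the all-gene median moved to 0. Their median as deposited was -0.18, with a range of -0.47 to 1.14. With the GC and length trends removed, 5 of the 9 lay above 0, Canx and Dnajc3 among them, and the median was the 0.07 of Dnajc3. The 23 genes with a promoter but no ERSE in the window had a median of -0.08 as deposited, with 5 above 0 and 18 below. Herpud1 is among these 23, though its window ends in CCAAT, a spacer of 9 bases and CCAC, the first letters of CCACG. An element that runs past the start site could not be found by this search.

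Transcripts of the stress sensors differed by less than 1.5-fold, and together they took 0.0379% of the HuR reads and 0.0416% of the β-Gal reads. Ern1, which encodes IRE1, the kinase and endonuclease that splices Xbp1 mRNA, stood at 36.1 FPKM in the HuR library and 36.4 FPKM in the β-Gal library. Eif2ak3, which encodes PERK, the kinase that slows translation by phosphorylating eIF2, stood at 8.90 FPKM in HuR and 8.91 FPKM in β-Gal. These values nearly coincide, and the counting interval of the ratio was 0.926 to 1.06 for Ern1 and 0.849 to 1.17 for Eif2ak3. Atf6, the membrane-bound transcription factor released by cleavage in the Golgi, had 11.7 FPKM in HuR and 17.1 FPKM in β-Gal, a ratio of 0.682 (0.628 to 0.740). Its relative Atf6b went the other way at 63.1 FPKM in HuR and 46.6 FPKM in β-Gal, a ratio of 1.35 (1.25 to 1.47), so the intervals of the pair did not overlap. With the trends of fold with GC content and length removed, the log2 value was -0.07 for Atf6 and, now below 0 as well, -0.04 for Atf6b. Xbp1, the transcription factor downstream of IRE1, was the most abundant of the 5 at 105 FPKM in HuR and 129 FPKM in β-Gal (0.815, 0.772 to 0.860). The gene-level values do not separate spliced from unspliced Xbp1 mRNA, nor do they measure activation of any sensor.

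Of the chaperones and folding enzymes, 1 of 14 was called higher and 0 lower, with a median log2 fold change of -0.07 that turned to 0.10 once the all-gene median was moved to 0. Together they took 0.316% of the HuR reads and 0.303% of the β-Gal reads, a ratio of 1.04 (1.03 to 1.05). Creld2, an endoplasmic reticulum protein with disulfide isomerase activity, stood at 70.03 FPKM in HuR and 31.2 FPKM in β-Gal. It was 2.25-fold higher (2.06 to 2.45), with a log2 fold change of 1.14 that exceeded 95.9% of compared genes. Creld2 (ENSMUSG00000023272) lies on the plus strand of chromosome 15 at 88819646 to 88826683 in GRCm38. Sdf2l1, a partner of the BiP cochaperone ERdj3, reached 19.4 FPKM in HuR and 9.64 FPKM in β-Gal, 2.01-fold higher (1.69 to 2.40) without the pseudocount, and missed the call with a log2 fold change of 0.94. Manf, a BiP-binding protein that can be secreted as a trophic factor, was at 91.7 FPKM in HuR and 54.0 FPKM in β-Gal (1.70-fold, 1.56 to 1.85). Creld2, Sdf2l1 and Manf had the highest log2 fold changes of the 38 genes. Exons of Manf overlap 146 bases of Dcaf1 on the opposite strand (9.18 FPKM in HuR, 16.01 FPKM in β-Gal) and 14 bases of Rbm15b on its own strand. The sources used here do not give the strand setting of the counting, so reads of such genes may not be separated.

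The abundant chaperones kept within 1.5-fold. Hspa5, which encodes BiP, the main Hsp70 chaperone of this compartment, stood at 475 FPKM in HuR and 549 FPKM in β-Gal, rank 249 and rank 192 of the listed genes by level. Its ratio was 0.866 (0.845 to 0.887). The lectin chaperones that hold glycoproteins, Calr and Canx, were close to it in ratio, at 0.921 and 0.884. Calr had 376 FPKM in HuR and 409 FPKM in β-Gal, and Canx had 169 FPKM in HuR and 191 FPKM in β-Gal. The log2 values of this trio, -0.21, -0.12 and -0.18, are near the all-gene median of -0.17. Calr lay at 0.05 on the log2 scale once that median was moved to 0, and Canx at 0.12 with the GC and length trends removed. Hsp90b1, which encodes GRP94, the Hsp90 of this compartment, had 133 FPKM in HuR and 109 FPKM in β-Gal (1.22-fold, 1.16 to 1.27). The level of Creld2 per level of Hspa5 was 0.147 in the HuR library and 0.0568 in the β-Gal library, and that of Manf per Hspa5 was 0.193 and 0.0985.

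Disulfide isomerases diverged. Pdia3, which encodes ERp57, the isomerase that works with Calr and Canx, stood at 539 FPKM in HuR and 381 FPKM in β-Gal (1.41-fold, 1.37 to 1.45), which made it the most abundant of the 38 genes in the HuR library. Pdia6 had 314 FPKM in HuR and 243 FPKM in β-Gal (1.29-fold, 1.25 to 1.34). Pdia4, which encodes ERp72, went the other way at 46.4 FPKM in HuR and 75.2 FPKM in β-Gal, 1.62-fold lower (1.504 to 1.75), and its interval overlapped that of neither other isomerase. Among the helpers of BiP, the J-domain cochaperone Dnajb11 (ERdj3) stood at 50.1 FPKM in HuR and 50.7 FPKM in β-Gal, and the nucleotide exchange factor Hyou1 (GRP170) at 21.2 and 25.6 FPKM. Dnajc3 (P58IPK), another J-domain protein, had 18.3 FPKM in HuR and 25.2 FPKM in β-Gal, and Dnajb9 (ERdj4) had 15.9 and 18.7 FPKM. These cochaperones lay between ratios of 0.725 and 0.989, below the ratios of Creld2, Sdf2l1 and Manf.

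Genes of endoplasmic reticulum-associated degradation held all 3 lower calls, at 3 of 10 genes with 0 higher, against 8.31% lower and 5.35% higher among all compared genes. All 10 had a log2 fold change below 0 as deposited, with a median of -0.25, but 7 of 10 once the all-gene median was moved to 0 and 8 of 10 with the GC and length trends removed. Below 0 as deposited were 60.7% of all compared genes. The 10 genes took 0.0602% of the HuR reads and 0.0747% of the β-Gal reads, a ratio of 0.805 (0.785 to 0.826). Edem3, one of the lectin-like proteins that trim mannose to mark glycoproteins for disposal, stood at 1.96 FPKM in HuR and 8.77 FPKM in β-Gal, from 137 and 637 reads. It was 4.48-fold lower (3.72 to 5.42), and 0.922% of compared genes had a log2 fold change below its -1.72. Its relatives Edem1, at 33.6 FPKM in HuR and 38.1 FPKM in β-Gal, and Edem2, at 58.0 and 61.1 FPKM, had ratios of 0.881 (0.824 to 0.942) and 0.948 (0.875 to 1.03) that did not overlap the 0.223 (0.184 to 0.269) of Edem3. Edem3 (ENSMUSG00000043019) lies on the plus strand of chromosome 1 at 151755371 to 151822051.

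The second lower call was Sel1l, the adaptor that stabilizes the ubiquitin ligase HRD1 and links it to its substrates. Sel1l (ENSMUSG00000020964, minus strand of chromosome 12 at 91806043 to 91849157) had 6.60 FPKM in HuR and 17.8 FPKM in β-Gal, 2.70-fold lower (2.38 to 3.08). Syvn1, which encodes HRD1 itself, was at 18.03 FPKM in HuR and 25.4 FPKM in β-Gal, 1.41-fold lower (1.29 to 1.53). Its exons share 91 bases with Mrpl49 on the opposite strand (25.5 FPKM in HuR, 21.01 FPKM in β-Gal). The level of Sel1l per level of Syvn1 was thus 0.366 in the HuR library and 0.703 in the β-Gal library. The third call was Herpud1, a stress-inducible membrane protein with a ubiquitin-like domain that organizes the HRD1 complex. It stood at 18.8 FPKM in HuR and 40.8 FPKM in β-Gal, 2.17-fold lower (1.92 to 2.46), and lies on the plus strand of chromosome 8 at 94386438 to 94395377 (ENSMUSG00000031770). The substrate lectin Os9 had 48.6 FPKM in HuR and 54.8 FPKM in β-Gal. The Derlins, membrane proteins that form part of the exit channel, were at 61.3 and 65.9 FPKM for Derl1 and 72.7 and 75.1 FPKM for Derl2 in HuR and β-Gal. Derl3 was barely detected at 1.36 FPKM in HuR and 1.96 FPKM in β-Gal, from an estimated 18 and 28 reads. At this depth no difference was detectable (ratio 0.693, about 0.348 to 1.25).

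**Figure D2:**
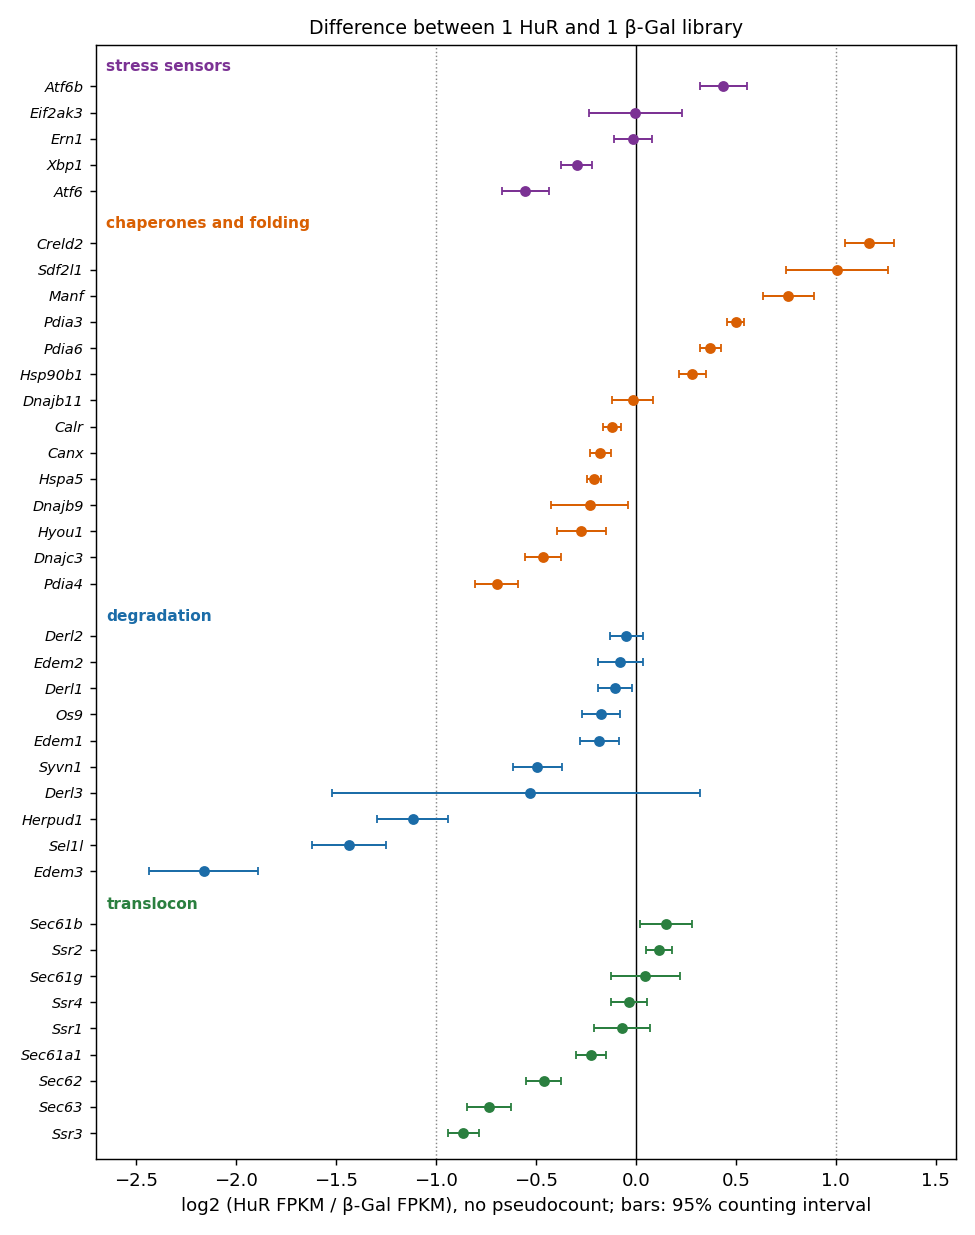
Log2 ratio of the HuR to the β-Gal library for each gene, without a pseudocount, by role, with 95% counting intervals as bars and dotted lines at 2-fold (1 library per group). The intervals of Edem3 and Sel1l lie wholly beyond 2-fold lower and that of Creld2 wholly beyond 2-fold higher, while those of Herpud1 (1.92 to 2.46 lower), Sdf2l1 and Derl3 cross a line.

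Counting intervals lay wholly above 1 for 9 of the 38 ratios and wholly below 1 for 20, and they held 1 for 9. Beyond 2-fold in either direction they lay wholly for 3 genes, Creld2, Edem3 and Sel1l. Such intervals were not counted over all compared genes, so these counts have no share beside them. As deposited, 28 of the 38 members and 60.7% of all compared genes had a log2 fold change below 0. The interval of Herpud1 began at 1.92-fold, so its call lies within counting error of the threshold. Reads of Creld2 and Herpud1 are estimates, so the width of their intervals is approximate.

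No translocon gene was called, in either direction, among 9, and the median log2 fold change was -0.07, or 0.10 once the all-gene median was moved to 0. The 9 genes took 0.0885% of the HuR reads and 0.107% of the β-Gal reads, a ratio of 0.830 (0.812 to 0.847). The subunits of the Sec61 channel had ratios between 0.856 and 1.11. Sec61a1, the pore-forming subunit, had 155 FPKM in HuR and 181 FPKM in β-Gal (0.856, 0.814 to 0.901). The small subunits Sec61b, at 104 FPKM in HuR and 93.6 FPKM in β-Gal, and Sec61g, at 39.8 and 38.5 FPKM, had ratios of 1.11 (1.01 to 1.22) and 1.03 (0.916 to 1.17), though Sec61b lay below 0 on the log2 scale (-0.31) with the GC and length trends removed. Sec62 and Sec63, which help proteins enter after translation and recruit BiP, were lower in value. Sec63 had 18.2 FPKM in HuR and 30.3 FPKM in β-Gal, 1.66-fold lower (1.54 to 1.80), and Sec62 had 57.1 FPKM in HuR and 78.6 FPKM in β-Gal, 1.38-fold lower (1.29 to 1.46). Both transcripts were low in GC content, at 40.96% for Sec63 and 41.5% for Sec62, and with the GC and length trends removed their log2 values were -0.22 for Sec63 and -0.17 for Sec62, near the -0.17 of all genes. Sec63 per Sec61a1 was 0.118 in the HuR library and 0.168 in the β-Gal library.

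Subunits of TRAP, the translocon-associated complex encoded by Ssr1 to Ssr4, did not keep the same proportions. Ssr3 stood at 67.6 FPKM in HuR and 123 FPKM in β-Gal, 1.82-fold lower (1.73 to 1.92). Ssr2 had 294 FPKM in HuR and 272 FPKM in β-Gal, Ssr4 had 105 and 108 FPKM, and Ssr1 had 13.9 and 14.6 FPKM. The interval of Ssr3 overlapped that of no other subunit, and the level of Ssr3 per Ssr2 was 0.229 in the HuR library and 0.453 in the β-Gal library. These are transcript levels per annotated length, and protein was not measured. Ssr3 had the lowest GC content of the 38 genes, at 40.2%, and a log2 fold change of -0.86 as deposited and -0.54 with the GC and length trends removed, beside -0.21 for Ssr2, -0.21 for Ssr4 and 0.28 for Ssr1.

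Differences followed the length and base composition of transcripts in the whole library, and the 38 genes shared this. All points come from the same pair of libraries, so the correlations below describe them and are not tests. Across the 38 genes the log2 fold change had a Spearman correlation of -0.49 with mean transcript length and 0.33 with GC content, against -0.31 and 0.33 over 12678 compared genes with a length. All 10 members in the longest 25% of genes lay below 0, with a median of -0.46 beside -0.42 for all genes of that length. The 6 members in the shortest 25%, 4 of them above 0, had a median of 0.08 beside 0.13. Edem3 and Sel1l, at 3958 and 2770 bases, were in the longest 25%, and Manf, at 837 bases, was in the shortest. Creld2 at 1366 bases and Sdf2l1 at 1108 bases lay in the next shortest 25%, where the median of all genes was -0.09. Herpud1, called lower, lay in that same range at 1117 bases. With both trends removed and the median kept, the log2 values became -1.36 for Edem3, -1.08 for Sel1l, -1.23 for Herpud1 and 0.94 for Creld2, which no longer passed 2-fold. Sdf2l1 and Manf were at 0.60 and 0.62 on that scale. The degradation group had a median of -0.45 and the chaperones one of 0.09 on that scale, beside -0.17 for all genes.

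**Figure D3:**
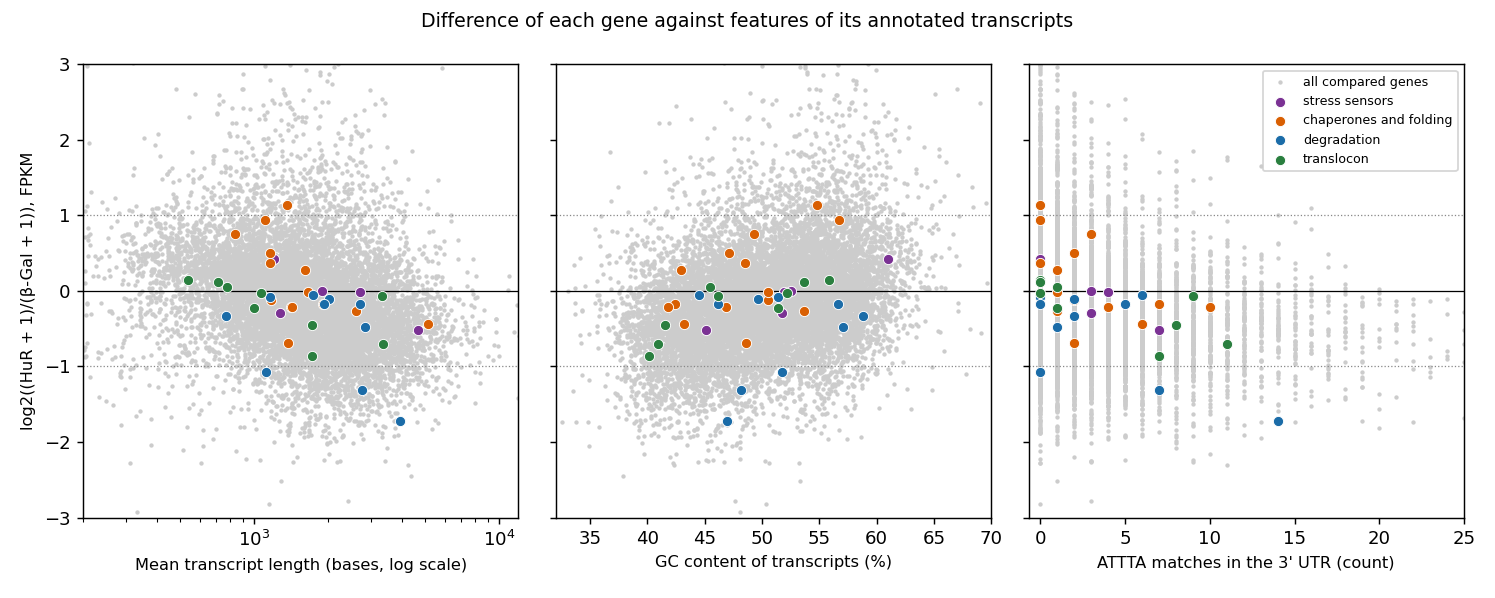
Log2 fold change with a pseudocount of 1 FPKM (1 HuR against 1 β-Gal library) plotted by mean transcript length, GC content and the number of ATTTA matches in the 3′ UTR, with all compared genes in grey and the 38 members coloured by role (genes outside the axes are not drawn). Members with 5 or more ATTTA matches all lie below 0 as deposited, though 2 of the 12 lie above 0 once the all-gene median is moved to 0 and 5 of 12 with the GC and length trends removed.

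Since HuR binds AU-rich stretches, ATTTA was counted in the 3′ untranslated region of the longest protein-coding transcript of each gene. It is a simple mark of AU-rich RNA and not a measured HuR site. The 12 members with 5 or more matches all had log2 fold changes below 0 as deposited, with a median of -0.45, but 10 of 12 once the all-gene median was moved to 0 and 7 of 12 with the GC and length trends removed. Over the 2338 compared genes with as many matches the median was -0.47, and 80.2% lay below 0. The 10 members with 0 matches had a median of 0.13 with 6 above 0, beside 0.00 for 3580 such genes, of which 49.9% lay below 0. Removal of the GC and length trends turned the order of these member classes round. Members with 0 matches then had a median of -0.21, with 3 of 10 above 0, and those with 5 or more had -0.10. ATTTA is AU-rich by its letters, so removing a GC trend can also remove differences that go with it. The same classes of all compared genes were not computed on that scale. The Spearman correlation between the number of matches and the log2 fold change as deposited was -0.53 over the 38 genes, against -0.29 over 11053 compared genes. The 30-base stretches below hold the most ATTTA matches, in capitals, of Edem3, with the most matches in all (14), of Hspa5, with the most per kilobase (6.97), and of Sec63, with 11.
Edem3 (chr1:151821300-151821329, plus strand): aaaATTTAaatgtgaaagaacagtaATTTA
Hspa5 (chr2:34776586-34776615, plus strand): gggtggtaccacttcttggagATTTATTTA
Sec63 (chr10:42832474-42832503, plus strand): tatataATTTAtaaataaataatacATTTA
Single genes departed from this correlation. Hspa5 had 10 matches and a ratio of 0.866, whereas Herpud1 had 0 matches, a mean length of 1117 bases and a GC content of 51.8%, and was 2.17-fold lower.

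Counts of calls in 8 related endoplasmic reticulum lists stand beside 8.31% lower and 5.35% higher among all compared genes. Among 12 subunits of the oligosaccharyltransferase, which attaches glycans, 0 were called and the median was 0.03. Its catalytic subunits were the farthest from 0, with Stt3b at 26.0 FPKM in HuR and 45.5 FPKM in β-Gal and Stt3a at 77.5 and 112 FPKM. The 5 signal peptidase genes also had 0 calls (median -0.07), with Sec11a at 129 FPKM in HuR and 87.6 FPKM in β-Gal and Spcs3 at 11.0 and 14.4 FPKM. Of 9 genes of the signal recognition particle and its receptor, 1 was lower (median -0.10), Srp54a, at 0.374 FPKM in HuR and 2.98 FPKM in β-Gal, a value made uncertain by its near-identical copies. Other translocon and insertion genes had 3 of 20 lower and 0 higher (median -0.15). Ccdc47, a partner of the translocon in membrane protein insertion, stood at 16.5 FPKM in HuR and 64.9 FPKM in β-Gal, 3.94-fold lower (3.57 to 4.37), followed by Mmgt1 at 1.95 and 5.34 FPKM and Tram2 at 2.08 and 5.48 FPKM.

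Other folding and lectin-cycle genes had 2 of 30 lower and 0 higher (median -0.13). Both were J-domain proteins. Dnajc1 was 3.56-fold lower (3.05 to 4.19) at 5.79 FPKM in HuR and 20.6 FPKM in β-Gal, and Dnajc10, a disulfide reductase that serves degradation, was 2.48-fold lower (2.23 to 2.76) at 19.3 and 47.8 FPKM. The remaining degradation genes had 2 of 28 lower and 0 higher (median -0.22). They were Erlin2, which marks activated calcium channels for disposal, at 6.43 FPKM in HuR and 19.1 FPKM in β-Gal, and the ubiquitin ligase gene March6 at 4.64 and 11.8 FPKM. The coat and cargo receptor genes of COPII vesicles, which carry folded proteins onward, had the lowest median, -0.33, with 3 of 25 lower and 0 higher. Sec23a, a coat subunit, was 3.88-fold lower (3.39 to 4.46), at 8.88 FPKM in HuR and 34.5 FPKM in β-Gal. Mia2, needed at endoplasmic reticulum exit sites, was at 42.0 FPKM in HuR and 132 FPKM in β-Gal, and the cargo receptor Tmed7 at 10.6 and 24.9 FPKM.

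Genes that process or regulate the sensors were the only list among these 8 with calls in both directions, 2 of 21 higher and 2 lower (median -0.19). Creb3l1, a membrane-bound transcription factor related to ATF6, stood at 5.24 FPKM in HuR and 0.439 FPKM in β-Gal, 11.9-fold higher (7.62 to 19.6). Nfyb, a subunit of NF-Y, which binds the CCAAT part of the ERSE, was 2.93-fold higher (2.70 to 3.19) at 92.6 FPKM in HuR and 31.6 FPKM in β-Gal. Its partners, named after their values were seen, did not share this, with Nfya at 17.0 FPKM in HuR and 17.1 FPKM in β-Gal and Nfyc at 24.8 and 34.03 FPKM. Mbtps2, the site-2 protease that releases ATF6, was 2.51-fold lower (2.12 to 2.98) at 4.72 FPKM in HuR and 11.8 FPKM in β-Gal, and Creb3 was 2.23-fold lower at 73.7 and 164 FPKM.

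**Figure D4:**
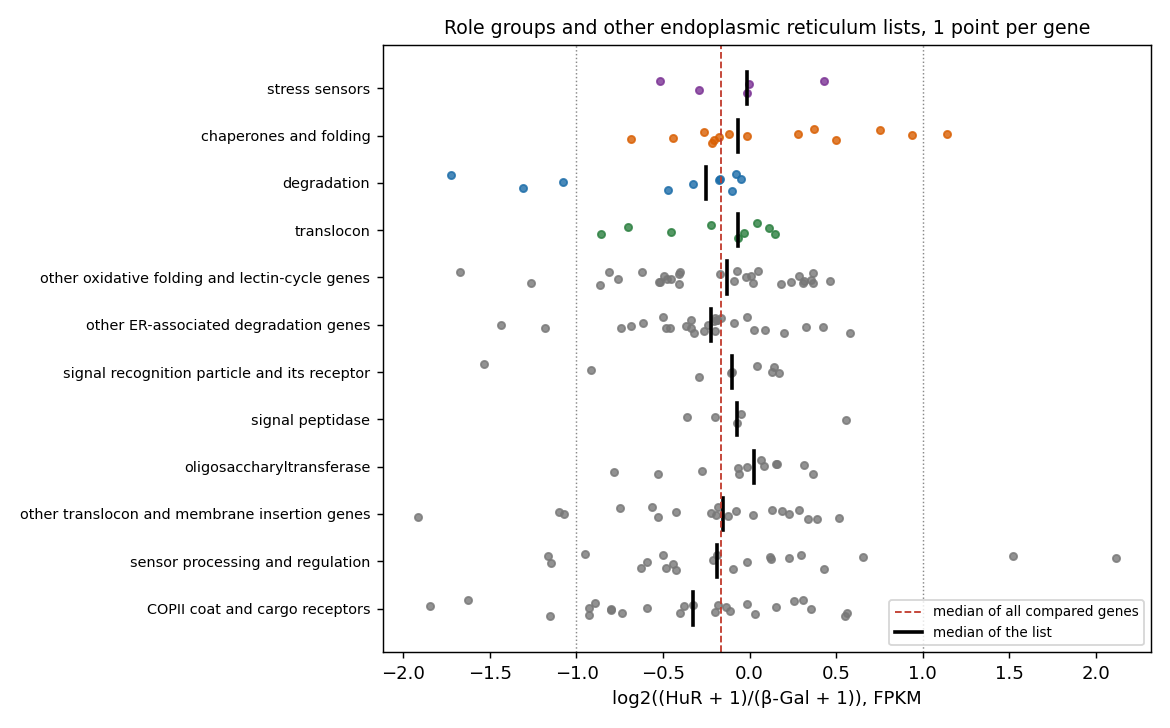
Log2 fold change with a pseudocount of 1 FPKM (1 HuR against 1 β-Gal library) for the 4 role groups of the 38 genes, in colour, and 8 related lists, in grey, with 1 point per gene, the list median as a black bar, the median of all compared genes (-0.17) as a dashed line and 2-fold as dotted lines. The calls of the degradation group lie on the lower side and that of the chaperones on the higher side, and the medians run from -0.33 for COPII genes to 0.03 for the oligosaccharyltransferase.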

How the data were processed

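RNA was sequenced from 1 HuR and 1 β-Gal culture of primary hepatocytes, grouped by the overexpression label. The authors deposited 1 FPKM value per gene and library. The submitters' processing notes name TopHat2, HTSeq 0.6.1 and the build GRCm38, without roles. No source used here gives the annotation, lengths, filters or strand setting. The tables listed no gene at 0 in the β-Gal library but 2233 at 0 in the HuR library, so genes seen in HuR alone are not analysed here.

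Identifiers were matched to GENCODE M21 (GRCm38), in which 20143 of 20505 were found. Library totals were set so that FPKM times rounded mean transcript length gave whole reads. Within 0.02 reads they did so in both libraries for 73.3% of 20133 genes, and for 27 of 38 members. Reads of the other 11, Creld2, Herpud1 and Derl3 among them, are estimates. Their length error cancels in ratios but not in the width of the intervals. Reads served for 95% exact Clopper-Pearson counting intervals on ratios without a pseudocount. No count test was run, and with 1 library per group no other test was possible. The smallest member value, that of Derl3 in HuR, rested on an estimated 18 reads.

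Comparison was limited to genes reaching 1 FPKM in a library, as log2((HuR + 1)/(β-Gal + 1)) with calls at 2-fold. A cubic trend on GC content and log2 length over all compared genes was removed as an alternative. Calculations used Python 3.11.15, numpy 2.4.6, scipy 1.17.1 and pandas 2.3.3, and were tested on simulated data. All 38 members are described. From the 8 related lists, genes past 2-fold are named, or the 2 farthest from 0 where none passed. The 1.5-fold counts and the ERSE-II search were added after the data were seen, and the members and lists were chosen with earlier results of these data known. Sequences came from RefSeq promoter windows (GRCm38.p6) and GENCODE transcripts.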

Additional observations from a re-analysis of the deposited data

How the results depend on the processing

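Creld2 was the 1 higher call and Edem3, Sel1l and Herpud1 the 3 lower calls as deposited and with a pseudocount of 0.1 FPKM. Without a filter on low values, or with a minimum of 5 FPKM, the counts were the same. A pseudocount of 5 FPKM left 0 lower calls, with Edem3 and Sel1l at -0.98 each on the log2 scale, by its construction, since it shrinks low genes. With the median of all compared genes set to 0 there were 2 higher calls (Creld2 and Sdf2l1) and 2 lower (Edem3 and Sel1l), as all values shift by 0.17. That shift brought the median log2 fold change to 0.0224 for all members, 0.15 for sensors, 0.10 for chaperones, -0.0868 for degradation (-0.25 as deposited, and -0.178 with a minimum of 5 FPKM) and 0.10 for the translocon. With the GC and length trends removed and the median kept, 0 members were higher and the same 3 genes lower. The medians were then 0.0945 for chaperones, -0.45 for degradation and -0.21 for the translocon. With both steps, an alternative added after the data were seen, Creld2 was the 1 higher call and Edem3 and Herpud1 the 2 lower calls, and the medians were 0.0739 for all members and 0.26 for chaperones. Of the 38 single values, 30 moved beyond their counting interval with the median set to 0, 28 with the trends removed and 25 with both, against 1 and 2 with pseudocounts of 0.1 and 5 FPKM, and 0 called values changed sign. Setting the median to 0 shifts every value by the same 0.17, so its count of 30 follows from the width of the intervals. Neither that shift nor a pseudocount could change the sign of a called value. Why the trends exist was not tested.

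No paired analysis was possible because each group has 1 library. No fit without a library exists for the same reason, and no value shows how far hepatocyte cultures vary. Depth limits Derl3 most, at an estimated 18 reads in HuR and 28 in β-Gal.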
